A study of Homo sapiens with 6 samples.

Results

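The hypoxia-inducible factors (HIFs), the enzymes that sense oxygen for them and a set of genes they are known to switch on were followed in OE33, an established human cell line from oesophageal adenocarcinoma. The 34 genes were taken by symbol, and GENCODE 29 matched all 34 to rows among the 58051 genes of the count table. Cells were grown in serum-containing medium in a CO2 incubator, and no label gives a low-oxygen step. There were 3 libraries of untreated cells and 3 of cells exposed for 24 h to 15 µM of the compound APX2009. The submitters describe it as a selective inhibitor of the redox function of APE1, a protein that also cuts abasic sites in DNA. All 6 libraries are from that 1 cell line, the comparison group received no named vehicle, and the samples used here hold neither a hypoxic culture nor an APE1 knockdown.

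HIFs are pairs of an oxygen-regulated alpha subunit and a stable beta subunit. In oxygenated cells, prolyl hydroxylases mark the alpha protein, the VHL ubiquitin ligase binds the mark, and the protein is degraded. When oxygen is short the alpha subunit persists and induces genes for glucose uptake, glycolysis, blood vessel growth, pH control and collagen modification. This control acts mainly on the protein, so transcript counts show the mRNAs of the factors and of their targets, not HIF protein. APE1 is known for keeping several transcription factors, HIF-1 among them, in a reduced state that binds DNA.

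Libraries held 21158750 to 26111656 gene counts, and markers of epithelium were abundant in all 6. The summed level of 8 epithelial markers was 28868 to 29615 CPM (counts scaled to library size) in untreated and 16550 to 20440 CPM in treated cells. Of the 8, 5 fell and none rose (62.5% called, against 34.7% of all genes tested). KRT19 made up most of the sum, with means of 18555 CPM untreated and 11303 CPM treated. EPCAM, CLDN4 and CLDN7 did not pass, with log2 changes of -0.0024, -0.069 and 0.16. The summed 8 fibroblast markers ran from 8.35 to 12.7 CPM in untreated cells, and were 19.4, 9.11 and 10.5 CPM in APX2009 replicates 1, 2 and 3. The summed 8 endothelial markers were 2.47 CPM in APX2009 replicate 1 and at most 0.562 CPM in any other library, and the summed 8 leukocyte markers were 6.08 to 6.79 CPM in untreated and 6.80 to 7.90 CPM in treated cells. Of those 8, 3 were tested. CD68, a lysosomal protein of macrophages, rose 2.28-fold (edgeR adjusted p = 0.00513). CD14 and LYZ had log2 changes of -0.18 and -0.76 and did not pass. APX2009 replicate 1 stood apart. It had counts for 25015 genes against 21845 to 22446 in the others, and held 48 counts of COL3A1 and 42 of DCN, collagen and proteoglycan genes of fibroblasts that were at 0 in the other 5 libraries. The fibroblast marker THY1 and the leukocyte markers CD3E and NKG7 were at 0 in all 6. For the 34 genes, results are given with and without APX2009 replicate 1 where that changes a call. Calls for other named genes are given with that library kept, and the part of these markers in the results was not tested.

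Most of the 34 genes were not called as changed relative to the other transcripts. All 34 passed the filter on low counts and were tested (edgeR, quasi-likelihood test on all genes together). Relative to the other transcripts FAM162A, CA12, ADM and P4HA2 rose and BHLHE40 fell, while 29 genes missed an adjusted p under 0.05. Scaled by ERCC spike-ins over all 6 libraries, these changed genes kept their signs and none passed. On that scale without APX2009 replicate 1, the median log2 change was -0.42 over the 34 genes and -0.48 over all genes tested. All 4 that rose then lay near 0. Their log2 changes were then -0.030 for FAM162A, 0.042 for CA12, -0.0082 for ADM and -0.0021 for P4HA2. Relative to the other transcripts, the called share was 14.7%, against 34.7% of the 14773 genes tested. By direction, 17.2% of all genes tested were called higher and 17.4% lower. None of the 34 was called with a change of at least 2-fold, which 4.72% of all genes tested reached. The median log2 change was 0.057 over the 34 genes and 0.017 over all genes tested. The 3 treated values lay wholly above the 3 untreated values for 8 of the 34 and wholly below for 6, and 49.4% of all genes tested had groups that did not overlap.

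**Figure D1:**
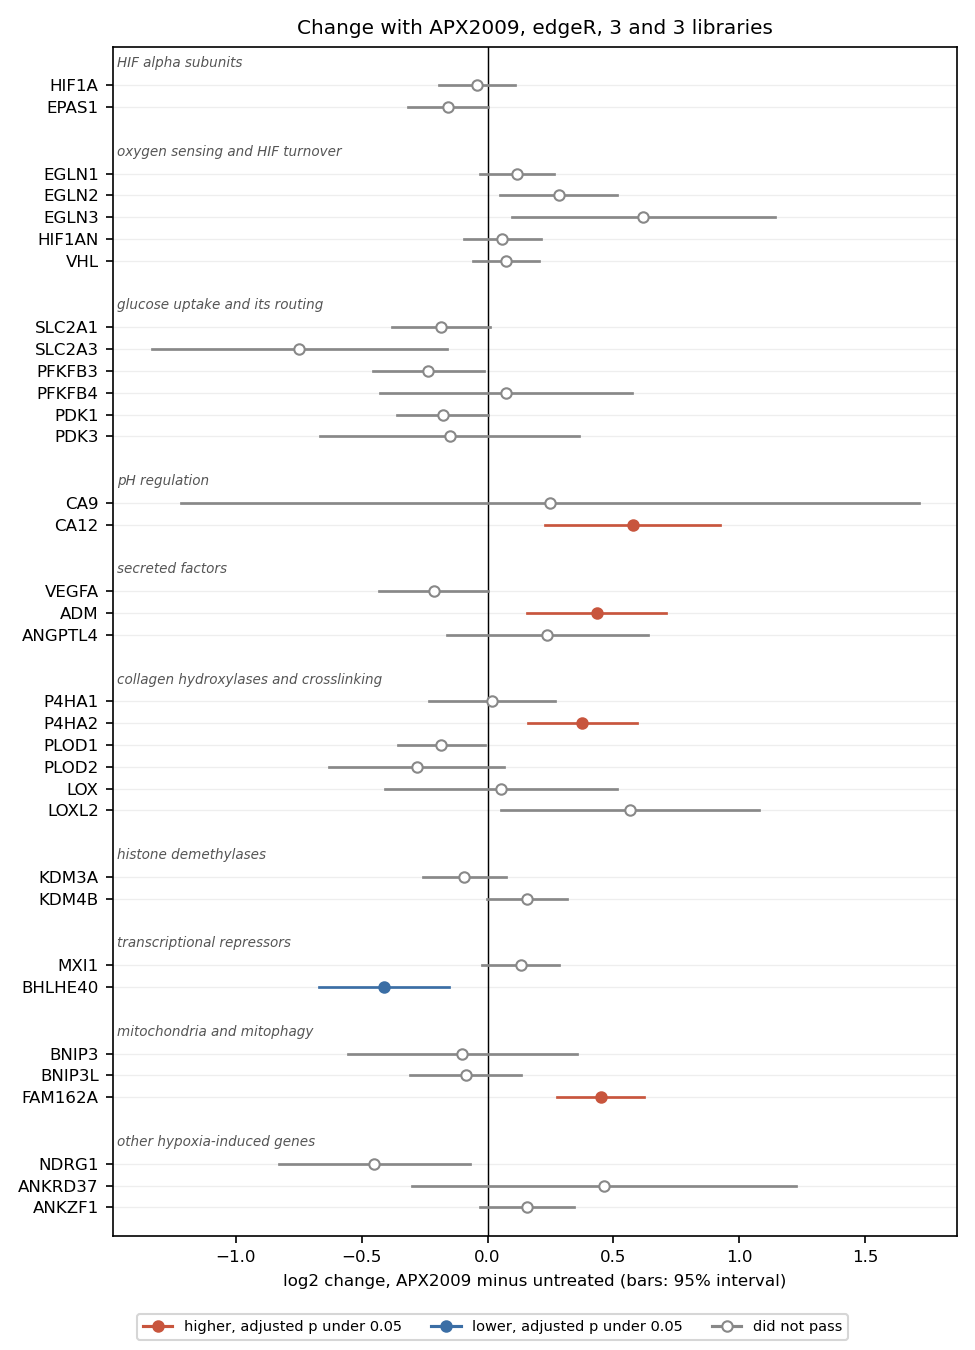
Log2 change of each of the 34 genes (APX2009 minus untreated, edgeR, 3 and 3 libraries) on the horizontal axis, with bars for the 95% interval and genes ordered by role. Filled points passed at an adjusted p under 0.05: FAM162A, CA12, ADM and P4HA2 to the right of 0, and BHLHE40 to the left. Scaled by ERCC spike-ins and without APX2009 replicate 1, FAM162A, ADM and P4HA2 would lie just left of 0 and CA12 just right. With that library kept, these genes would stay to the right of 0 on the ERCC scale.

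FAM162A (ENSG00000114023; GRCh38 chromosome 3, 122384176 to 122412334) had the smallest p of the set. It codes for a mitochondrial protein that is induced under hypoxia. Its levels were 27.7, 28.8 and 25.9 CPM in the 3 untreated libraries and 36.7, 40.3 and 35.5 CPM in the 3 treated ones. All treated values lay above all untreated values, and the log2 change was 0.45 ± 0.077 (SE; edgeR adjusted p = 0.00148). CA12 (ENSG00000074410; chromosome 15, 63321378 to 63382161) codes for a membrane carbonic anhydrase that helps set the pH outside the cell. It was scarce, with 2.37, 2.25 and 2.27 CPM untreated and 3.63, 3.33 and 3.31 CPM treated. The treated values again lay above, with 51 to 56 counts per untreated library and 69 to 97 per treated library. Its log2 change was 0.58 ± 0.16 (SE; edgeR adjusted p = 0.0164).

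ADM (ENSG00000148926; chromosome 11, 10304680 to 10307397) codes for adrenomedullin, a secreted peptide that widens blood vessels. Its levels were 24.6, 18.8 and 17.8 CPM untreated and 25.8, 26.4 and 30.6 CPM treated. The groups did not overlap, but untreated replicate 1 came close to the lowest treated library, and the log2 change was 0.43 ± 0.12 (SE; edgeR adjusted p = 0.0217). P4HA2 (ENSG00000072682; chromosome 5, 132191838 to 132295315) codes for a subunit of a prolyl hydroxylase of collagen. It was at 53.6, 52.9 and 52.8 CPM untreated and at 58.0, 71.2 and 77.8 CPM treated. The untreated values were close together and the treated ones spread, lowest in APX2009 replicate 1. The log2 change was 0.38 ± 0.097 (SE; edgeR adjusted p = 0.0129), and 0.49 without that library. Of its exon bases, 6.45% are shared with P4HA2-AS1, whose reads may count here.

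BHLHE40 (ENSG00000134107; chromosome 3, 4979116 to 4985323), also known as DEC1, codes for a transcriptional repressor induced by hypoxia and by the circadian clock. It was at 111.6, 96.4 and 87.3 CPM untreated and at 61.9, 81.7 and 78.7 CPM treated. All 3 treated values were lower, and APX2009 replicate 1 was the lowest. The log2 change was -0.41 ± 0.12 (SE; edgeR adjusted p = 0.0195), and -0.30 without APX2009 replicate 1 (edgeR adjusted p = 0.0163).

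FAM162A and P4HA2 passed whichever library was left out. CA12 missed without untreated replicate 2 or 3 (edgeR adjusted p = 0.0546 and 0.0599). ADM missed without untreated replicate 2 or 3 or APX2009 replicate 3 (edgeR adjusted p = 0.0798, 0.0872 and 0.0746), and BHLHE40 missed without untreated replicate 1 (edgeR adjusted p = 0.0706). Over all alternatives except ERCC scaling without APX2009 replicate 1, these p-values ran from 0.0146 to 1 for CA12, from 1.58e-04 to 1 for ADM and from 9.62e-07 to 1 for BHLHE40. The upper ends came from the test against a 1.5-fold change, which asks whether a change exceeds that size. With ERCC scaling over all 6 libraries, the edgeR adjusted p was 0.9998 for each of these genes. Ranges given below include both settings. CA12 also missed with DESeq2 (adjusted p = 0.0549) and with no filter on low counts (edgeR adjusted p = 0.0698). All 5 calls held without APX2009 replicate 1. That fit called 6 of the 34 higher and 2 lower, and 38.1% of all genes tested: EGLN3 and KDM4B also rose, and VEGFA also fell.

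HIF binds a short core in DNA, ACGTG or GCGTG, and both were searched on both strands in the 250 bases before each RefSeq gene start (GRCh38.p14). The table of promoters matched 27 of the 34 genes, some with several starts. VHL, VEGFA, NDRG1, BNIP3L, SLC2A3, LOXL2 and ANKZF1 have no entry in it. Of 36 matched promoters, 50.0% held ACGTG, 50.0% held GCGTG and 77.8% held either. Over the 14821 promoters of genes tested the shares were 22.5%, 43.2% and 55.0%, and over all 35116 promoters they were 18.5%, 32.2% and 43.2%. The sets also differ in base composition, with a median GC content of 68.6%, 64.4% and 58.0%, so the shares are descriptions only. Upstream sequence is shown for the 4 changed genes with a match, because these are the members whose transcripts moved. P4HA2 had no match in its window. Genes that did not pass held matches too. Counted by gene, 23 of the 27 held either core, as did 6620 of the 10228 genes tested that have an entry. The stretch before FAM162A, at chr3:122383932-122384175 on the + strand, is 1 run read 5′ to 3′ with matches to either core on either strand in capitals:
FAM162A: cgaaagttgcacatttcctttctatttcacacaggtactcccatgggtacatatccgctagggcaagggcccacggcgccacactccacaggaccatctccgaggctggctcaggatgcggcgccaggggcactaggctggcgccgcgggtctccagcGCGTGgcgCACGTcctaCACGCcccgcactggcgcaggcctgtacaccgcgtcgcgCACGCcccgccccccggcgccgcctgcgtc

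The 4 matches in it begin 92, 84, 75 and 36 bases before the RefSeq start. For the other 3 genes the window lies inside an exon of GENCODE 29, so only a short stretch around a match is shown. These are CA12 at chr15:63382066-63382090 on the - strand, ADM at chr11:10304962-10304986 on the + strand and BHLHE40 at chr3:4979187-4979207 on the + strand, each read 5′ to 3′ on the gene's strand:
CA12: ggatctcaccCACGCctgccagcag
ADM: gcaggagcgcGCGTGgctgaggaaa
BHLHE40: tccaaCACGTGagactcatgt

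In BHLHE40 the capitals are ACGTG read on each strand, overlapping, 245 and 244 bases before the start, and 2 more matches begin at 174 and 149 bases. The matches in CA12 and ADM are GCGTG, 234 and 101 bases before the start. A match is not a measured binding site.

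The alpha subunits were well expressed. HIF1A stood at 180.8 ± 14.9 TPM (counts scaled for gene length and library) untreated and 167 ± 5.95 TPM treated (SD, n = 3). EPAS1, which codes for HIF-2 alpha, stood at 133 ± 6.06 and 114 ± 12.3 TPM. HIF1A (chromosome 14, 61695513 to 61748259) was at 223, 247 and 242 CPM in untreated and 234, 220.4 and 236 CPM in treated libraries. These values interleave, and the log2 change was -0.043 (95% interval -0.19 to 0.11; edgeR adjusted p = 0.660). EPAS1 was at 243, 249 and 249 CPM untreated and 203, 223 and 238 CPM treated. All 3 treated values were lower, but the change of -0.16 (95% interval -0.32 to 0.0031) did not pass (edgeR adjusted p = 0.118). It passed without APX2009 replicate 3, at -0.21 (edgeR adjusted p = 0.0448, with a range from 0.0448 to 1 over those same alternatives).

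**Figure D2:**
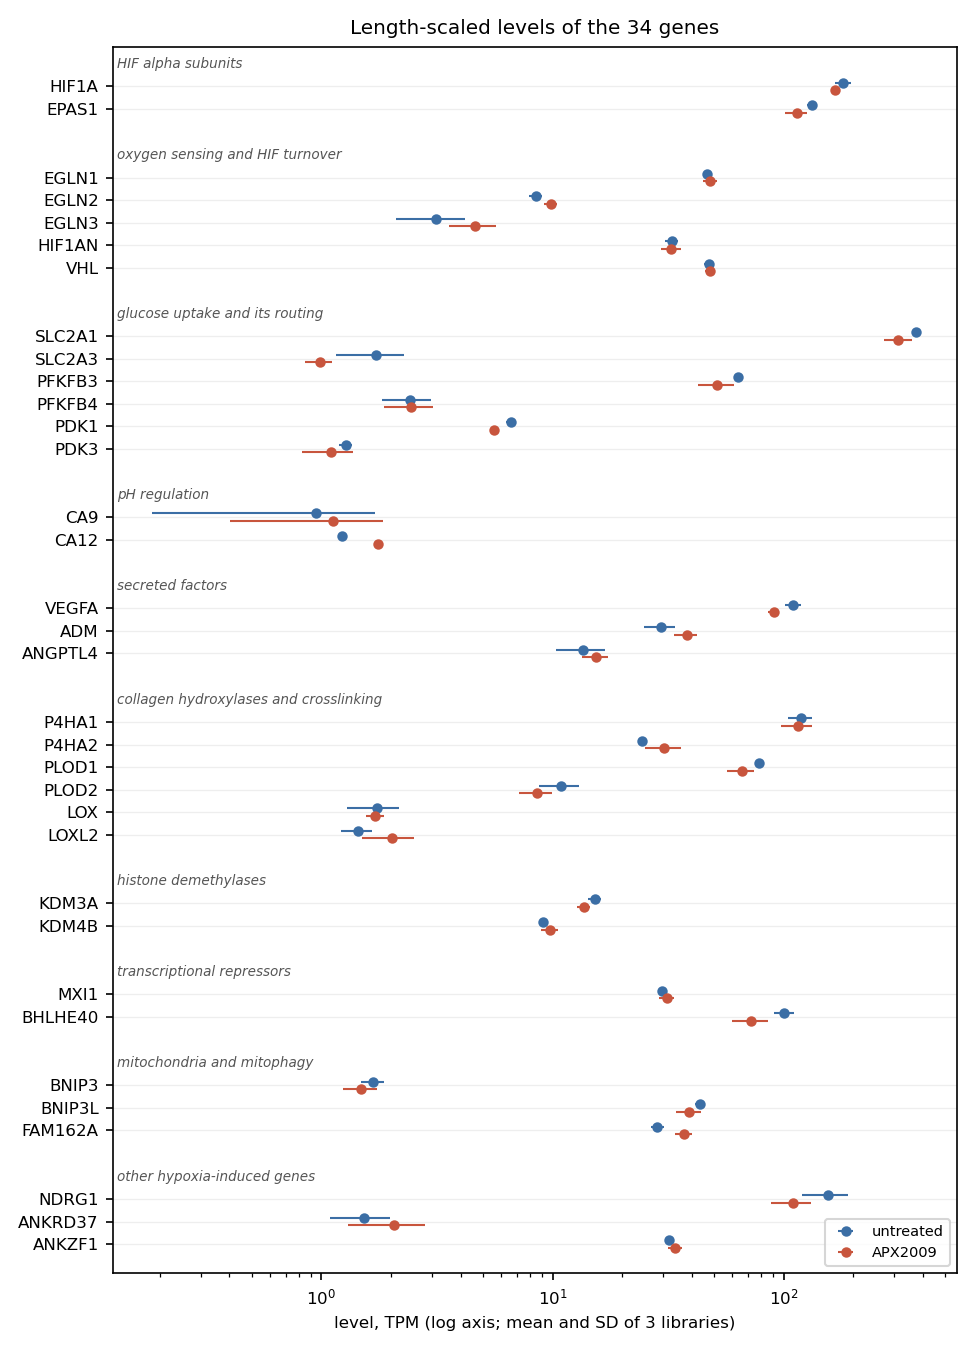
Length-scaled level of each of the 34 genes in TPM on a log axis, as mean and SD of 3 libraries per group, ordered by role. SLC2A1 is highest at 372 TPM in untreated cells and HIF1A follows at 180.8 TPM, while CA9 is lowest at 0.945 TPM.

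Of the 5 genes that hold HIF in check, none passed, beside a called share of 34.7% over all genes tested. EGLN1, EGLN2 and EGLN3 code for the prolyl hydroxylases PHD2, PHD1 and PHD3, of which PHD2 is the main oxygen sensor. In untreated cells EGLN1 stood at 46.5 ± 0.513 TPM, EGLN2 at 8.47 ± 0.554 TPM and EGLN3 at 3.13 ± 1.03 TPM (SD, n = 3). The order was the same in treated cells, at 48.1 ± 3.50, 9.81 ± 0.590 and 4.62 ± 1.06 TPM, with gaps wider than the SDs. EGLN1 counts came to 89.8, 84.6 and 84.0 CPM untreated and 93.4, 98.6 and 87.8 CPM treated, with overlap and a log2 change of 0.12 (95% interval -0.032 to 0.26). EGLN2 was at 14.9, 12.9 and 14.9 CPM untreated and 19.1, 15.9 and 16.9 CPM treated. The treated values lay above, and the change of 0.28 (95% interval 0.050 to 0.52) missed the threshold (edgeR adjusted p = 0.0601). Without APX2009 replicate 2 it was 0.35 and passed (edgeR adjusted p = 0.0483, with a range from 0.0411 to 1 over those alternatives). A read-through gene, RAB4B-EGLN2, shares 30.6% of the EGLN2 exon bases, so reads there can count for either.

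EGLN3 is itself a strong HIF target. It was at 8.40, 4.62 and 4.72 CPM untreated and 8.05, 11.2 and 7.95 CPM treated. Untreated replicate 1 reached the treated range while the other 2 untreated libraries lay well below it. Over all 6 libraries the log2 change was 0.62 (95% interval 0.096 to 1.14; edgeR adjusted p = 0.0655). It became 0.96 without untreated replicate 1 (edgeR adjusted p = 0.00595) and 0.45 without APX2009 replicate 2 (edgeR adjusted p = 0.204). It also passed without APX2009 replicate 1, at 0.70 (edgeR adjusted p = 0.0336), and with no filter, DESeq2 and limma voom. Over those alternatives the adjusted p ran from 0.00107 to 1.

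HIF1AN, or FIH, hydroxylates an asparagine that blocks coactivator binding, and VHL is the substrate receptor of the ligase. HIF1AN was at 112, 119 and 119 CPM untreated and 112, 125 and 128 CPM treated, overlapping, with a log2 change of 0.058 (95% interval -0.095 to 0.21). VHL was at 50.3, 52.3 and 50.8 CPM untreated and 53.7, 55.2 and 52.5 CPM treated. The treated values lay just above the untreated ones and the log2 change was 0.073 (95% interval -0.058 to 0.20). A list of 14 genes held HIF partners, coactivators and other parts of the VHL ligase, and also SENP1, OS9, SIAH1 and SIAH2. Of the 14, 13 were tested, 1 rose and none fell (7.69% called, against 34.7% of all genes tested), with a median log2 change of -0.046. That gene was CITED2, a HIF-induced protein that competes with HIF for its coactivators, at 12.9 ± 1.37 CPM untreated and 19.1 ± 1.74 CPM treated (SD, n = 3; log2 change 0.56 ± 0.11, SE; edgeR adjusted p = 0.00275). The beta subunit ARNT had a log2 change of -0.17 and did not pass (edgeR adjusted p = 0.123). With ERCC scaling over all 6 libraries, 0 genes of this list were called higher and 0 lower.

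None of the 6 genes for glucose uptake and its routing passed, with log2 changes from -0.75 to 0.073 and treated values wholly below untreated ones for 3. Over all genes tested, 34.7% were called and 49.4% had groups that did not overlap. SLC2A1, which codes for the glucose transporter GLUT1, was the most abundant of all 34 genes by length-scaled level, at 372 ± 11.3 TPM untreated and 314 ± 43.5 TPM treated (SD, n = 3). Its values were 477, 441 and 428 CPM untreated and 347, 425 and 413 CPM treated. The treated libraries lay below with a narrow gap, and the change was -0.18 (95% interval -0.38 to 0.011), or -0.10 without APX2009 replicate 1. SLC2A3, the GLUT3 gene, was scarce, with 3.84, 2.01 and 2.31 CPM untreated and 1.54, 1.82 and 1.49 CPM treated. It had the widest log2 change of the 34, -0.75 (95% interval -1.33 to -0.16), and lay at the threshold without passing (edgeR adjusted p = 0.0502). It was -0.42 without untreated replicate 1 and -0.92 without untreated replicate 2. It passed without the latter library and, among other alternatives, with RLE size factors, with DESeq2 and with no filter, the adjusted p running from 0.0215 to 0.9998 over the alternatives named above. For PDK1, a kinase that keeps pyruvate out of the mitochondrion, the treated range of 21.8 to 22.7 CPM lay below the untreated range of 23.9 to 27.4 CPM (log2 change -0.18, 95% interval -0.36 to 0.0037). PFKFB3, which makes an activator of glycolysis, had a log2 change of -0.24 (95% interval -0.46 to -0.016; edgeR adjusted p = 0.0906) with APX2009 replicate 1 lowest. It was -0.14 without that library and -0.36 without APX2009 replicate 3, where it passed, as it did with no filter (edgeR adjusted p = 0.00761 and 0.0103, with a range from 0.00761 to 1 over those alternatives). PFKFB4 ranged from 3.03 to 4.96 CPM and PDK3, another pyruvate dehydrogenase kinase, from 1.24 to 1.82 CPM, with overlapping groups.

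The glycolysis genes that HIF is known to induce, enzymes and the lactate exporter SLC16A3, were taken as a list of 16 genes, all tested. Of these 2 rose and 5 fell, with a median log2 change of -0.041. SLC16A3, which exports lactate, fell 1.74-fold from 702 ± 15.3 to 404 ± 48.0 CPM (SD, n = 3; edgeR adjusted p = 1.05e-04). PFKL, the liver form of phosphofructokinase, fell 1.64-fold (edgeR adjusted p = 6.71e-04). PKM, the last kinase of the pathway, fell 1.51-fold (edgeR adjusted p = 7.26e-04) and HK2, the inducible hexokinase, 1.42-fold (edgeR adjusted p = 7.52e-04). LDHA, which makes lactate, was the other gene that fell, and ENO2 and PFKP were the genes that rose. The changed share of this list, 43.8%, stands beside 34.7% of all genes tested. The list was chosen with earlier results of these data known. With ERCC scaling over all 6 libraries, 0 of the 16 were called higher and 0 lower. APX2009 replicate 1 was the lowest treated library for 15 of the 16, and changes without it are not given here.

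Of the carbonic anhydrases, CA9 is among the most specific hypoxia markers in tumours. It was nearly silent, with 18, 5 and 5 counts in the untreated and 5, 11 and 17 in the treated libraries. Both groups spanned the same range, and the 95% interval of its log2 change ran from -1.22 to 1.71, so a difference was not detectable at this depth. Moreover 38.5% of its exon bases lie opposite exons of ARHGEF39, and with the strand setting unknown those reads cannot be assigned. BNIP3, a mitophagy receptor that hypoxia usually induces, was also scarce, at 1.67 ± 0.190 TPM untreated and 1.49 ± 0.249 TPM treated (SD, n = 3). Its relative BNIP3L stood far higher, at 43.4 ± 2.29 and 39.0 ± 4.88 TPM, and neither passed.

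VEGFA, the growth factor of blood vessels, was abundant. Its levels were 457, 365 and 395 CPM untreated and 387, 330.2 and 332 CPM treated. The groups overlapped through APX2009 replicate 1 and the log2 change was -0.21 (95% interval -0.43 to 0.0013; edgeR adjusted p = 0.113). Without that library it was -0.29 and passed (edgeR adjusted p = 0.00935), and the adjusted p ran from 0.00935 to 1 over those alternatives. ANGPTL4, a secreted lipase inhibitor, was at 11.4, 7.39 and 7.16 CPM untreated and 9.74, 11.4 and 9.39 CPM treated. Untreated replicate 1 again matched the treated libraries, and the change was 0.24 (95% interval -0.16 to 0.64), or 0.48 without that library (edgeR adjusted p = 0.0351, with a range from 0.0351 to 1 over those alternatives).

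Besides P4HA2, the genes for collagen-modifying enzymes did not pass, beside a called share of 34.7% over all genes tested. P4HA1 had a log2 change of 0.017 (95% interval -0.23 to 0.27), so P4HA2 passed and P4HA1 did not, although the difference between them was not tested. PLOD1 and PLOD2, lysyl hydroxylases, had log2 changes of -0.18 and -0.28, and the treated values of PLOD1 all lay below the untreated ones. PLOD1 was at -0.11 without APX2009 replicate 1, and at -0.25 without APX2009 replicate 2, where it passed (edgeR adjusted p = 0.0305, with a range from 0.0305 to 1 over those alternatives). PLOD2 was at -0.083 without untreated replicate 1 and -0.19 without APX2009 replicate 3, and it passed with no filter (edgeR adjusted p = 0.0305, with a range from 0.0305 to 1). LOX and LOXL2 cross-link collagen and were scarce, at 1.73 ± 0.441 and 1.43 ± 0.217 TPM untreated (SD, n = 3). LOXL2 had a log2 change of 0.57 (95% interval 0.055 to 1.08; edgeR adjusted p = 0.0821), and 0.78 without APX2009 replicate 2 (edgeR adjusted p = 0.0170, with a range from 0.0170 to 1 over those alternatives), with 94, 48 and 75 counts in the treated libraries against 42 to 54 in the untreated ones.

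Among the remaining genes, NDRG1, a stress-response gene used as a hypoxia marker, spread widely within the untreated group. It was at 505, 355 and 311 CPM untreated and 238, 333 and 287 CPM treated. Untreated replicate 1 was well above the rest, the groups overlapped, and the change of -0.45 (95% interval -0.83 to -0.071) did not pass (edgeR adjusted p = 0.0649). It was -0.22 without untreated replicate 1. It passed at -0.59 without untreated replicate 3, at -0.57 without APX2009 replicate 2 and at -0.46 with no filter, and the adjusted p ran from 3.72e-06 to 1 over those alternatives. The histone demethylase genes KDM3A and KDM4B had log2 changes of -0.093 and 0.16, and MXI1, which codes for a repressor that opposes MYC, 0.13. ANKZF1, a factor in mitochondrial protein quality control, had 0.16, and the scarce ANKRD37 0.46 (95% interval -0.30 to 1.23). None of these 5 passed, although the treated values of KDM4B and MXI1 lay wholly above the untreated ones. Over all genes tested, 34.7% were called and 49.4% had groups that did not overlap. KDM4B passed without APX2009 replicate 1 (log2 change 0.19; edgeR adjusted p = 0.0381, with a range from 0.0381 to 1 over those alternatives). Of the ANKRD37 exon bases, 35.2% lie opposite exons of UFSP2, and with the strand setting unknown those reads cannot be assigned.

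**Figure D3:**
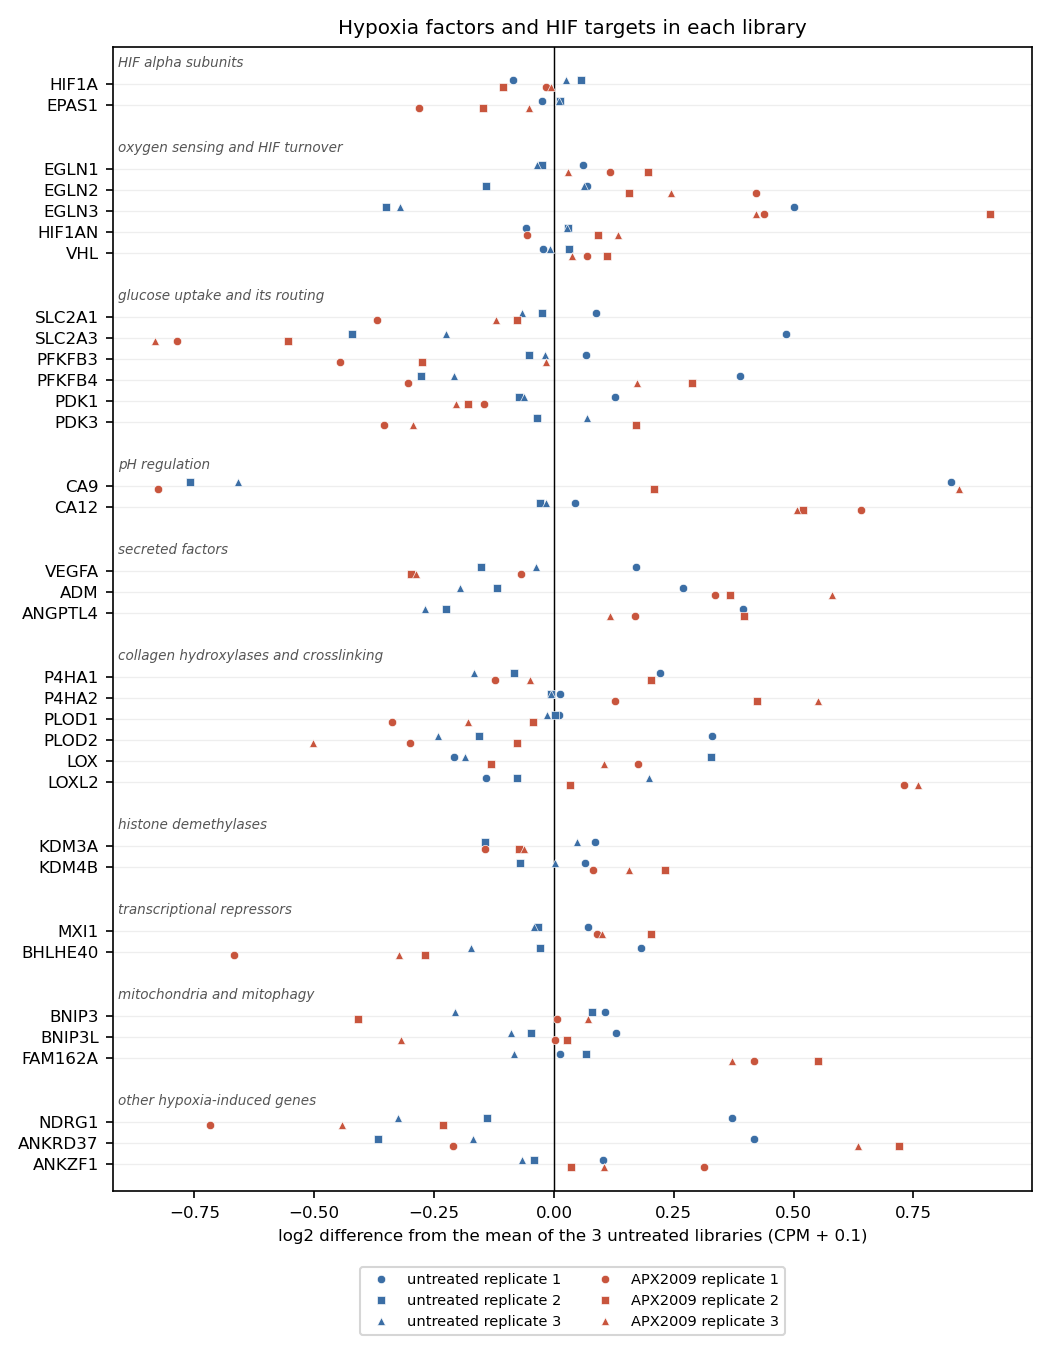
Log2 difference of each library from the mean of the 3 untreated libraries (CPM + 0.1) for the 34 genes, ordered by role, with untreated libraries in blue and APX2009 libraries in red. Untreated replicate 1 (blue circles) sits to the right of the other untreated libraries for 26 of the 34 genes, EGLN3, SLC2A3, CA9 and NDRG1 among them.

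Untreated replicate 1 was the highest of the 3 untreated libraries for 26 of the 34 genes (76.5%), against 37.5% of all genes tested. It exceeded the mean of the other 2 by more than 1.25-fold for 10 of the 34, against 8.98% of all genes tested. Those 10 were CA9 (2.90-fold), EGLN3 (1.78-fold), SLC2A3 (1.74-fold), ANKRD37 (1.60-fold), ANGPTL4 (1.56-fold), PFKFB4 (1.55-fold), NDRG1 (1.52-fold), PLOD2 (1.44-fold), ADM (1.34-fold) and P4HA1 (1.27-fold). All folds and log2 differences in this paragraph used CPM + 0.1, which narrows them for scarce genes such as CA9 and ANKRD37. HIF1A, EPAS1, HIF1AN and VHL were slightly lower in that library than in the other 2, with log2 differences of -0.13, -0.037, -0.086 and -0.034. It was the highest untreated library for 14 of the 16 glycolysis genes and 15 of 24 further HIF-induced genes, but for 3 of 13 genes of the HIF partner list. This pattern was picked out after the values were seen, rests on 1 culture and has no test. That library held 22443569 gene counts against 22601491 and 25093753, and 0.553% ERCC spike-in counts against 0.564% and 0.480%. Over all genes it also lay apart from the other 2: chi-square per degree of freedom was 18.8 and 10.8 against them and 3.06 between them, and its 8.98% of genes above 1.25-fold compared with 4.28% and 5.38% in the others. The part of that difference in the pattern was not tested.

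**Figure D4:**
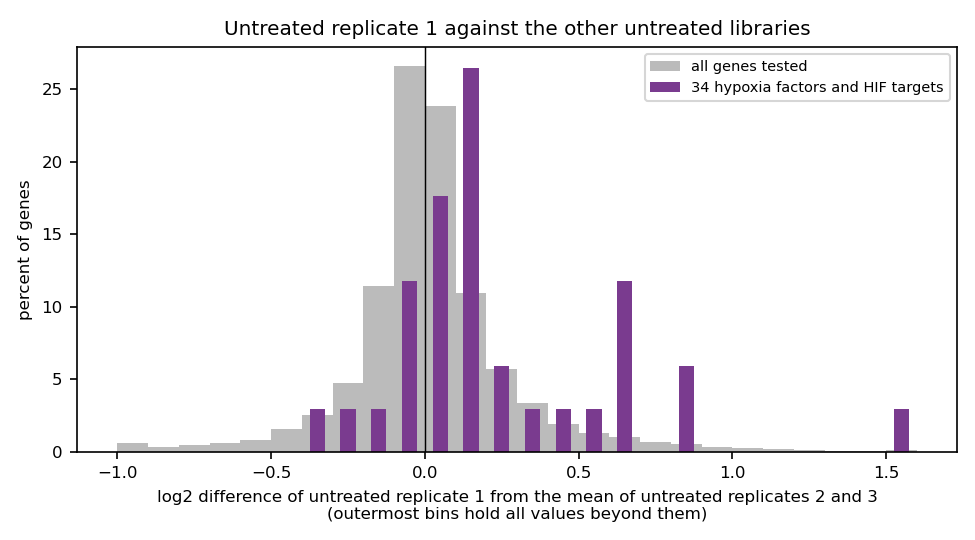
Percent of genes (vertical axis) by the log2 difference of untreated replicate 1 from the mean of the other 2 untreated libraries (CPM + 0.1). All 14773 genes tested are in grey and the 34 hypoxia genes in purple. All genes centre on 0, while the 34 have a median of 0.13 and a tail that ends with CA9 at 1.54.

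Without untreated replicate 1, 6 of the 34 were called higher and none lower, with 27.2% of all genes tested called. ADM, CA12, FAM162A and P4HA2 remained, EGLN3 and ANGPTL4 were added, and BHLHE40 was lost. The treated libraries differed among themselves in this set as well: APX2009 replicate 2 was the highest treated library for 18 of the 34 genes (28.8% of all genes tested), and APX2009 replicate 1 the lowest for 15 of the 16 glycolysis genes (41.6% of all genes tested).

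A list of 29 further HIF-induced genes held 24 that were tested. Of these 11 rose and 3 fell, 58.3% of those tested against 34.7% of all genes tested, with a median log2 change of 0.26. The list was chosen with earlier results of these data known. With ERCC scaling over all 6 libraries, 1 gene of the list was called higher and 0 lower, beside 0.921% of all genes tested. The 3 named here are known targets of other pathways too. HMOX1, haem oxygenase, rose 52.1-fold (edgeR adjusted p = 5.65e-07), and TFRC, the transferrin receptor, rose 2.03-fold (edgeR adjusted p = 2.70e-06). DDIT4, an inhibitor of mTORC1 that many stresses induce, fell 2.04-fold (edgeR adjusted p = 1.45e-05). None of the 34 genes had a log2 change as wide as those of these 3.

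The choice of scale bears on direction. ERCC spike-ins, added RNAs of fixed sequence, made up 0.480% to 0.564% of counts in untreated libraries, 0.315% in APX2009 replicate 1, and 0.752% and 0.734% in APX2009 replicates 2 and 3. Scaled by the ERCC total over all 6 libraries, none of the 34 passed in edgeR, none had an unadjusted p under 0.05, and 0.921% of all genes tested were called. The log2 changes were then 0.51 for FAM162A, 0.66 for CA12, 0.48 for ADM, 0.37 for P4HA2 and -0.42 for BHLHE40. With ERCC scaling and without APX2009 replicate 1, the median log2 change of all genes tested was -0.48, with 21 of the 34 called lower and none higher (64.6% of all genes tested were called). Relative to that median the 5 changed genes stood at 0.45 for FAM162A, 0.52 for CA12, 0.47 for ADM, 0.48 for P4HA2 and -0.30 for BHLHE40. Their own log2 changes on that scale were -0.030 for FAM162A, 0.042 for CA12, -0.0082 for ADM, -0.0021 for P4HA2 and -0.79 for BHLHE40, of which only BHLHE40 passed. With APX2009 replicate 1 kept, the median of all genes tested on the ERCC scale was 0.078, so the fall was not seen over all 6 libraries. Fewer transcripts per cell, fewer cells per sample and other sources of a changed ERCC share cannot be told apart in these bulk libraries.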

How the data were processed

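RNA sequencing of polyadenylated RNA was analysed in 6 libraries, grouped by their titles. The table deposited by the authors holds raw counts, as whole numbers, for each Ensembl gene and for 92 ERCC spike-ins. Tools named in the submitters' processing notes are STAR 2.5.2b, Trimmomatic 0.36, Subread 1.5.2 and featureCounts, with GRCh38 as genome build. The strand setting and the annotation release were not given in the sources used here, so reads of overlapping genes are uncertain. Symbols, positions and exon lengths came from GENCODE 29, which matched 57447 of 58051 rows; the rest held 0.0348% of counts.

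ERCC rows were kept out of library sizes. Genes passing filterByExpr were scaled by TMM and tested in edgeR 4.0.16 (R 4.3.3; glmQLFit and glmQLFTest) on treatment alone, with Benjamini-Hochberg adjustment over all genes and a threshold of 0.05. SEs and 95% intervals came from the F statistic. CPM used TMM-adjusted library sizes, and TPM used merged exon lengths. The step was tested on simulated data. The design text calls the replicates independent and gives no further detail, so p-values measure the spread between these samples.

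The 34 genes and the lists were chosen with earlier results of these data known. Every member is accounted for. Values per library are given for members that changed and for HIF1A, EPAS1, VHL, HIF1AN and the EGLN genes, and up to 4 changed genes with the smallest p from each further list. A gene that this rule names is not reported here. Values per library for other members were added after they were seen. Alternatives were RLE, upper-quartile, total-count and ERCC scaling, no filter, 1 CPM in 3 libraries, leaving out each library, a replicate block, DESeq2 1.42.0, limma voom (limma 3.58.1), an adjusted p under 0.01 and a test against a 1.5-fold change. ERCC scaling without APX2009 replicate 1 was added after seeing the data. Figures used matplotlib 3.10.9.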

Additional observations from a re-analysis of the deposited data

How the results depend on the processing

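The numbers of members called higher and lower, 4 and 1 in the reported fit, are small and moved readily. Leaving out 1 library at a time gave 2 to 6 higher and 0 to 3 lower, and for all genes the calls stayed within 1.5 times of the 2543 higher and 2576 lower. Members lower numbered 2 with RLE size factors, upper-quartile factors and DESeq2 (34.7%, 35.0% and 33.0% of all genes called), where SLC2A3 joined BHLHE40, and 5 with no filter (18.1%), where NDRG1, SLC2A3, PFKFB3 and PLOD2 joined it. Adjusted p under 0.01 left 1 member higher and 0 lower (1470 and 1587 of all genes), a test against a 1.5-fold change 0 and 0 (351 and 255), and the ERCC total 0 and 0 (129 and 7). With the ERCC total and without APX2009 replicate 1, 0 members were higher and 21 lower (459 and 9230 of all genes). The causes were not tested.

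Replicate numbers are shared by the groups, but the correlations of deviations of same-numbered libraries were 0.14, 0.078 and 0.0060, so the numbers were not taken as pairs. Untreated replicate 2 correlated most with APX2009 replicate 3 (0.11). With a replicate block 6 members were called higher and 5 lower, with 37.2% of all genes called: EGLN2 and EGLN3 were added above, and VEGFA, NDRG1, SLC2A3 and PFKFB3 below.

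Signs turned among the alternatives listed for these results only for members that did not pass. With the ERCC total HIF1A was at 0.035 and BNIP3L at 0.013 (log2 change). Leaving out 1 library at a time, the log2 change ran from -0.29 to 1.17 for CA9, from -0.19 to 0.045 for BNIP3, from -0.14 to 0.013 for BNIP3L, from -0.079 to 0.14 for P4HA1, from -0.042 to 0.27 for LOX and from -0.046 to 0.32 for PFKFB4. With ERCC scaling and without APX2009 replicate 1, where the median of all genes was -0.48, the signs turned for HIF1AN (-0.38), VHL (-0.42), ADM (-0.0082), EGLN1 (-0.38), EGLN2 (-0.28), P4HA1 (-0.41), P4HA2 (-0.0021), KDM4B (-0.29), LOX (-0.52), LOXL2 (-0.034), PFKFB4 (-0.24), ANGPTL4 (-0.22), MXI1 (-0.34), ANKZF1 (-0.42) and FAM162A (-0.030).

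CA9, CA12, BNIP3, PDK3, SLC2A3, LOX, LOXL2 and ANKRD37 rest on at most 97 counts in any library.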
